A study of Mus musculus with 2 samples.

Results

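Skin proteases and their inhibitors were compared between 2 laser-dissected parts of the murine hair follicle, its bulge and its hairshaft. The genes were chosen by a rule on their symbols, set with earlier results of these data known. They comprise the kallikreins (Klk), the clade B serpins (Serpinb), the Kazal-type inhibitors (Spink), the numbered cystatins (Cst) and the lettered cathepsins (Cts, without Ctss), together with the proteases Casp14, Asprv1, St14 and Prss8 and the adhesion protein corneodesmosin, Cdsn. In all, 75 of 18194 measured genes met this rule, covered by 102 of 45101 probe sets. Both structures were cut by laser from frozen, eosin-stained skin of C57Bl6 mice aged 21 days, and each was hybridised to 1 array after linear amplification of 30 ng of RNA. The labels give no genotype or treatment beyond this strain, and no number, sex or body site of the animals. Values are log2 GCRMA probe-set summaries, and differences are bulge minus hairshaft on that scale. With 1 array per structure there is no replicate spread and no test, so every difference describes these 2 arrays. The background floor was 2.68 on each array, the level that 95% of the probe sets for olfactory and vomeronasal receptors did not exceed.

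The outer epidermis is shed by proteolysis. Kallikreins and related serine proteases cut corneodesmosin and the desmosomal cadherins that hold corneocytes together, the membrane protease matriptase (St14) works with prostasin (Prss8) upstream, and Casp14 and Asprv1 process filaggrin. Spink5, some clade B serpins and the cystatins hold these enzymes and the lysosomal cathepsins in check, and loss of several of them causes scaling skin disorders. The infundibulum, the mouth of the follicle, is lined by the same kind of cornifying epithelium.

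The 2 arrays differed in markers of other cell types. A gene is called bulge-high or hairshaft-high where it was at least 2-fold apart in that direction. Of the markers of skeletal muscle, 10 of 10 were bulge-high, with a summed signal of 17.52 (log2) there and 6.51 in the hairshaft, as were 9 of 9 adipocyte markers (15.95 and 7.54) and 10 of 10 endothelial markers (10.60 and 6.96). Hair shaft keratins did not mark the array labelled hairshaft, and 6 of 10 were bulge-high. On the bulge array 10 of 10 were above the background floor, and 6 on the other, where Krt31, Krt33a, Krt35 and Krt86 were not. Krt35 (2.70 in the bulge) and Krt36 (2.71 in the bulge, 2.68 in the hairshaft) barely passed the floor of 2.68. Of the 9 genes listed as the bulge's own markers, 7 were bulge-high. The other 2 were Tcf3 and Tcf4, which in RefSeq names are not the bulge factors once so called, Tcf7l1 and Tcf7l2. Suprabasal epidermal markers were present on both arrays, with summed signals of 17.41 for the bulge against 17.52 for the hairshaft. These sums rest on the brightest markers, such as Krt10 (15.33 and 15.36), near the upper end of the array's range, where a signal may saturate. Of the 10 suprabasal markers, 8 were lower in the bulge, and 1, involucrin (Ivl, -1.39), was hairshaft-high. The part of these other cells in the differences below was not tested. In tissue samples, fewer cells of a type and less RNA per cell cannot be told apart.

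Of the 75 genes, 50 were above the floor, and all 50 were so on both arrays. The remaining 25 read as background on both. These were Klk4, 8 of 10 genes of the Klk1 subfamily, Spink8, Spink10 and Spink12, the cystatins Cst9 to Cst13, the serpins Serpinb1b, Serpinb9c, Serpinb9d and Serpinb9g, and the cathepsins Ctsj, Ctsm, Ctsq and Ctsr, which are known from placenta.

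Proteases and inhibitors at least 2-fold apart were equally frequent in both directions. Of the 50 genes, 9 (18%) were bulge-high, against 11.4% of all 13329 genes above the floor. Another 9 (18%) were hairshaft-high, against 4.91% of all genes. The 9 bulge-high genes were Serpinb11, Serpinb6e, Serpinb6a, Serpinb6c, Serpinb9, Klk10, Cst6, Ctsz and Ctsg. The 9 hairshaft-high genes were Serpinb12, Serpinb7, Klk13, Klk8, Casp14, Cdsn, Ctsk, Ctsw and Cst7. At 8-fold the bulge had 2 of 50 (4%), against 3.02% of all genes, which is close to the background, and the hairshaft had 0, against 0.188%. The median difference of the 50 genes was -0.25, and that of all genes above the floor was 0. Genes nearest the 2-fold limit were Ctsg (1.14), Cst6 (1.16) and Cdsn (-1.18) inside it, and Spink4 (0.997), Klk7 (-0.91) and Klk11 (-0.88) outside.

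**Figure D1:**
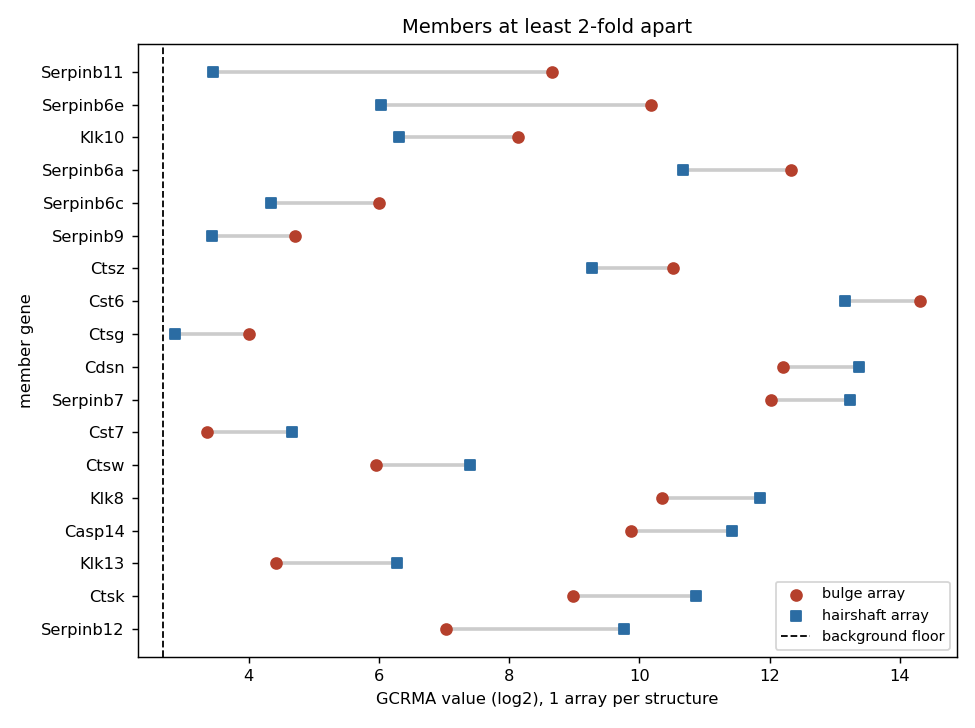
Log2 GCRMA value (x axis) of the 18 protease and inhibitor genes at least 2-fold apart (y axis, ordered by difference), with 1 red circle for the bulge array and 1 blue square for the hairshaft array, and the background floor as a dashed line. Serpinb11 has the longest line, from 3.45 in the hairshaft to 8.66 in the bulge, and Ctsg, Cst7 and Serpinb9 lie near the floor.

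Of 10 measured kallikrein-related peptidases 9 were above the floor, and 7 of these 9 had the higher value in the hairshaft, 2 of them by at least 2-fold. Among all 13329 genes above the floor, 6205 were higher in the hairshaft, 5981 in the bulge and the rest equal. Klk10 went the other way. The median of the 9 genes was -0.48.

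Klk5 and Klk7 are the trypsin-like and the chymotrypsin-like kallikrein best known for degrading corneodesmosomes. Klk5 was 12.07 in the bulge against 12.49 in the hairshaft, a difference of -0.42. Klk7 was 12.06 and 12.97, a difference of -0.91. Both values were high on both arrays and under 2-fold apart. Klk8, also called neuropsin, is expressed in the upper epidermis and in brain. It was 10.34 in the bulge against 11.86 in the hairshaft, a difference of -1.51 or 2.86-fold. It ranked 226 of 13329 genes in this direction.

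Klk13 was the kallikrein farthest toward the hairshaft. Its value was 4.42 in the bulge against 6.28 in the hairshaft, a difference of -1.86 or 3.63-fold, and it ranked 109 of 13329. Klk11, a trypsin-like kallikrein, was 8.28 and 9.16, and Klk9 was 6.55 and 7.04. These 2 were under 2-fold apart in the same direction. Klk12 lay close to the floor at 3.0 and 3.23. Klk6, a trypsin-like protease of skin and nervous tissue, was 8.38 in the bulge against 8.16 in the hairshaft, a difference of 0.22.

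Klk10 was 8.13 in the bulge against 6.31 in the hairshaft, a difference of 1.82 or 3.52-fold. It was past 2-fold under all 7 processing alternatives (other floors, probe sets and scalings), as Klk8 and Klk13 were. Markers of the upper follicle moved the same way as Klk10, with 5 of 7 bulge-high and summed signals of 15.34 and 13.42. Other lists moved that way too, with 6 of the 6 sebaceous gland markers above the floor bulge-high (15.16 and 12.07 summed), 6 of 8 of the inner root sheath (12.38 and 12.20) and 3 of the 4 melanocyte markers above the floor (7.77 and 5.18). The part of any of these cells in the Klk10 difference was not tested.

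The Klk1 subfamily, which holds tissue kallikrein and its mouse-specific relatives, was barely detected. Klk1, which releases kinins, was 4.52 in the bulge against 4.31 in the hairshaft with the probe set of highest mean, and Klk1b21 was 3.37 and 3.13. The other 2 probe sets of Klk1 above the floor had small differences of the opposite sign, -0.12 and -0.26. The subfamily is alike in sequence and its probe sets can share signal.

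In RefSeq gene order on chromosome 7, the genes from Klk13 to Klk5 form 1 run of detected kallikreins, and the measured genes from Klk4 onward were at background apart from Klk1 and Klk1b21. Klk10 stands in this run between Klk11 and Klk9, both of which were higher in the hairshaft. Klk14, Klk15 and several genes of the Klk1 subfamily, such as Klk1b9 and Klk1b26, were not analysed here.

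**Figure D2:**
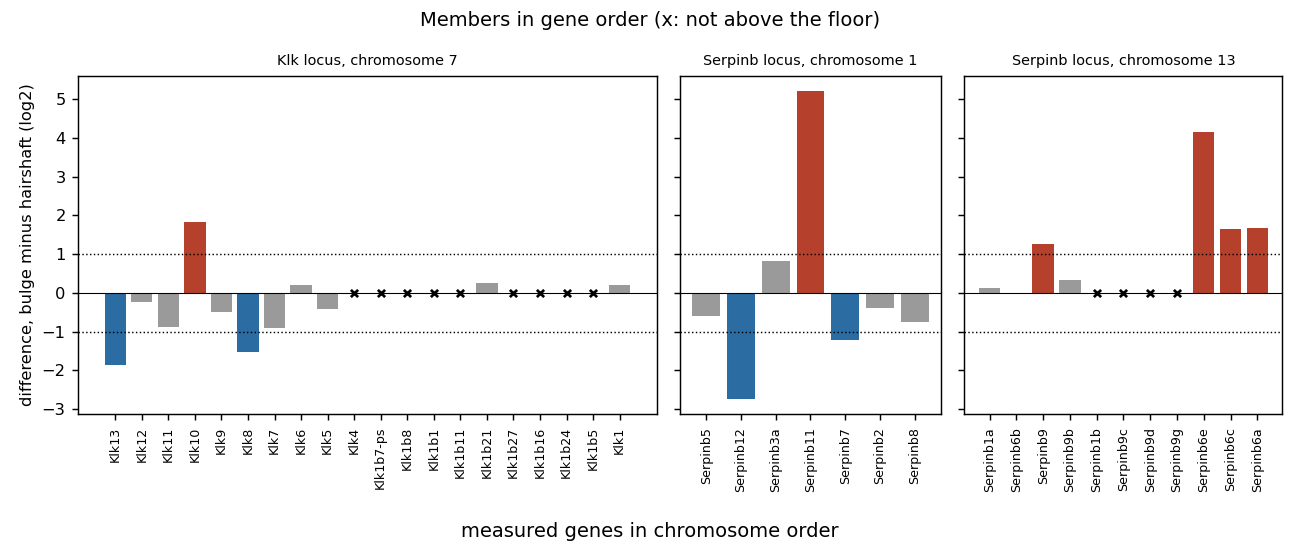
Difference between arrays (y axis, log2, bulge minus hairshaft) of the measured genes in RefSeq chromosome order (x axis) at the Klk locus and the 2 Serpinb loci, as bars from 0. Red bars are bulge-high and blue bars hairshaft-high by 2-fold or more, grey bars are under 2-fold, crosses mark genes not above the floor and dotted lines mark 2-fold. Serpinb6b has no bar because its values were equal.

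Casp14, Asprv1, St14, Prss8 and corneodesmosin all had the higher value in the hairshaft. Casp14, the caspase of cornifying keratinocytes that processes filaggrin, was 9.88 in the bulge against 11.43 in the hairshaft, a difference of -1.55 or 2.93-fold. Averaged over its 2 probe sets, the difference was -0.97. The second probe set was at background on both arrays (2.25 and 2.64). Corneodesmosin, the kallikrein substrate that glues corneocytes together, was 12.20 and 13.38, a difference of -1.18.

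The upstream membrane proteases were closer. Prss8, the membrane-anchored protease prostasin, was 8.47 in the bulge against 9.32 in the hairshaft, a difference of -0.85. St14, or matriptase, was 9.26 and 9.54, a difference of -0.28. Asprv1, the retroviral-like aspartic protease that cuts profilaggrin, was 13.13 and 13.38. None of these 3 reached 2-fold. The group of 5 had a median of -0.85, beside 0 for all genes.

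The Kazal-type inhibitor Spink5, or LEKTI, inhibits Klk5 and Klk7. It was 11.85 in the bulge against 12.35 in the hairshaft, a difference of -0.50, beside -0.42 for Klk5 and -0.91 for Klk7. Inhibitor and targets thus had the same direction, and all 3 were under 2-fold apart. The other Kazal-type genes above the floor were dim. Spink4 was 4.97 and 3.97, Spink2 was 3.83 and 4.09, and Spink1, the pancreatic trypsin inhibitor, was 2.97 and 3.34. No gene of this family was at least 2-fold apart.

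**Figure D3:**
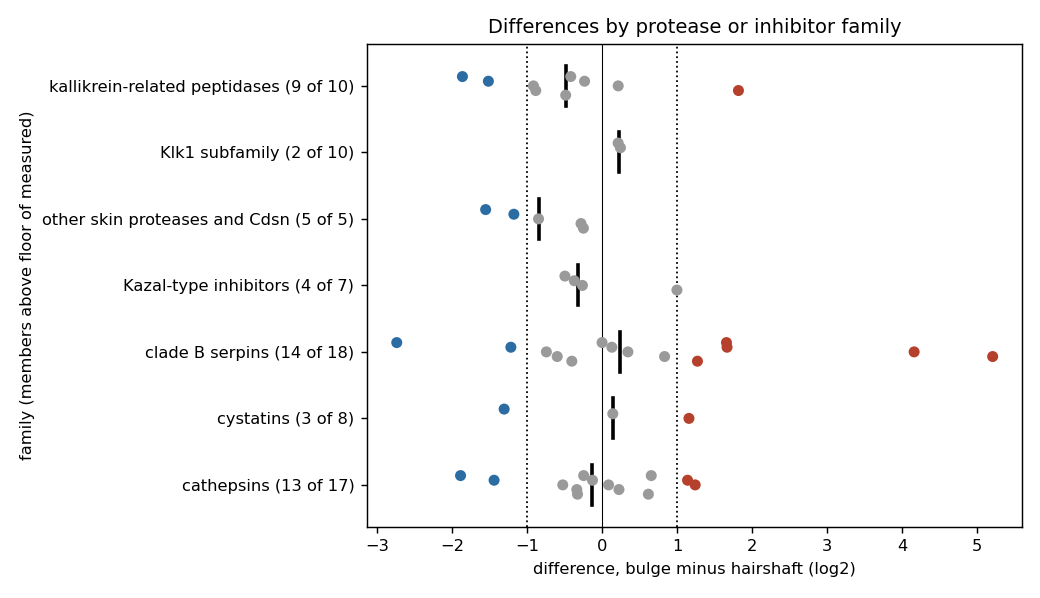
Difference between arrays (x axis, log2, bulge minus hairshaft) for each gene above the floor, by family (y axis, with the number above the floor of those measured). Each point is 1 gene, red where bulge-high and blue where hairshaft-high by 2-fold or more, the thick bar is the family median and dotted lines mark 2-fold. The clade B serpins spread widest, from -2.74 to 5.20.

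The clade B serpins, intracellular serpins that inhibit serine and some cysteine proteases, held the largest differences of any family here. Of 18 measured, 14 were above the floor. Of these, 5 were bulge-high, 2 hairshaft-high and 7 under 2-fold apart. The genes lie at 2 loci, and on these arrays the loci differed in direction. On chromosome 1, 5 of 7 genes were higher in the hairshaft (median -0.60). On chromosome 13, none of the 7 genes above the floor was higher in the hairshaft, and 4 were bulge-high (median 1.27). This count rests on the probe sets used: with averaged probe sets Serpinb1a was -0.45, and with plain ones 3 of the 4 bulge-high genes had no value. Among all 13329 genes above the floor, directions were nearly even for differences of any size, as given for the kallikreins. At 2-fold they leaned to the bulge, with 11.4% of all these genes bulge-high and 4.91% hairshaft-high. The medians describe the genes above the floor. Without a floor, the median was -0.60 over the 7 measured genes on chromosome 1 and 0.13 over the 11 on chromosome 13.

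Serpinb11 had the largest difference of all the proteases and inhibitors. It was 8.66 in the bulge against 3.45 in the hairshaft, a difference of 5.20 or 36.9-fold, and ranked 135 of 13329 genes toward the bulge. Its hairshaft value lies near the floor, so the size depends on the background. It was 4.45 when the floor was raised to 4.21, the 99th percentile of the same receptors, and 3.96 with an offset of 16 added to the linear signal. Serpinb11 is represented by 1 probe set.

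Serpinb12 lies in the same locus and went the opposite way. It was 7.03 in the bulge against 9.76 in the hairshaft, a difference of -2.74 or 6.66-fold, and ranked 31 of 13329 genes toward the hairshaft. A second probe set lay just above the floor at 2.83 and 2.90. With the mean of both the difference was -1.40.

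Serpinb7, whose human counterpart is mutated in a palmoplantar keratosis, follows Serpinb11 in the order of the Serpinb genes at this locus. It was 12.01 in the bulge against 13.23 in the hairshaft, a difference of -1.22 or 2.32-fold. Serpinb5 (maspin), which keratinocytes make in quantity, was 12.83 and 13.43, a difference of -0.60. Its 4 probe sets all had the higher value in the hairshaft, from -0.60 to -1.01.

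Serpinb8 was 10.35 in the bulge against 11.09 in the hairshaft, and Serpinb2, or plasminogen activator inhibitor 2, was 10.65 and 11.05. Both were under 2-fold apart. Serpinb3a, a mouse relative of the human squamous cell carcinoma antigens, was 6.39 in the bulge against 5.56 in the hairshaft. Serpinb3a was measured by a probe set of the _x_at kind, which can bind related transcripts, and it has close copies next to it in the genome.

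The 250 bases before the RefSeq start are shown for Serpinb11 and its neighbour Serpinb7, and for Klk10 and Klk8, because each pair lies in 1 locus and went opposite ways. Capitals mark matches to any of 4 short motifs on either strand. These are the TATA box TATAAA, the AP-1-like letters TGANTCA, the CCAAT box CCAAT and the GC box GGGCGG. N stands for any base, while the AP-1 consensus has C or G there. The sequences are from RefSeq, build GRCm38.p6, plus strand, 5′ to 3′, at chr1:107362064-107362313 (Serpinb11), chr1:107422439-107422688 (Serpinb7), chr7:43780804-43781053 (Klk10) and chr7:43797327-43797576 (Klk8).
Serpinb11: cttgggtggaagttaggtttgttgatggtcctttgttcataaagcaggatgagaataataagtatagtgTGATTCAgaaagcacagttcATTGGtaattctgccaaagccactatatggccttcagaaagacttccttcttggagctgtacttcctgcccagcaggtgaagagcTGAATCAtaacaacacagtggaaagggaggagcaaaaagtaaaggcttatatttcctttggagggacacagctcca
Serpinb7: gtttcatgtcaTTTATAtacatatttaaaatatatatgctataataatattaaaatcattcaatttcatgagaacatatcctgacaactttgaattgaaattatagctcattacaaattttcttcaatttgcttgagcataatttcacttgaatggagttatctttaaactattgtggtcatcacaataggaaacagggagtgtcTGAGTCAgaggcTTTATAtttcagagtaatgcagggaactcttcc
Klk10: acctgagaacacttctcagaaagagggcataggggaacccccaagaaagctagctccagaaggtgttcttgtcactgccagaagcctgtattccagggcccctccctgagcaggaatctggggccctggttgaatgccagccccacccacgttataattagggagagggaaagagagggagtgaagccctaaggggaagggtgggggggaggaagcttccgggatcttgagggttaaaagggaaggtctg
Klk8: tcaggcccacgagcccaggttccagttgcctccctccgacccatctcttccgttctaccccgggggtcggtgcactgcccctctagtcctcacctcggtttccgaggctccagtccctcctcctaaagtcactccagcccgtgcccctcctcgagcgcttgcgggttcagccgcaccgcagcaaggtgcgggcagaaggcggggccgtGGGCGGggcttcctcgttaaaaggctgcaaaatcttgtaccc

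The Serpinb11 window held 1 CCAAT match on the minus strand and 2 AP-1-like matches, TGATTCA and TGAATCA. These 2 begin 181 and 76 bases before the start, and neither has C or G at the centre. The Serpinb7 window held 1 AP-1 match, TGAGTCA, which begins 45 bases before the start and has G at the centre. It also held 2 TATA matches on the minus strand, at 239 and 33 bases. The Klk8 window held 1 GC box, 42 bases before the start. The Klk10 window held none of these letters. None of the matches overlapped. Among 32851 RefSeq windows of this length, 6.75% held the AP-1-like letters, 12.4% the TATA box, 33.8% the CCAAT box and 32.7% the GC box. Windows were found for 59 of the 75 genes. Of these 59, 7 held the AP-1-like letters, 8 the TATA box, 21 the CCAAT box and 15 the GC box. A match describes the sequence and is no evidence of binding.

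The serpins on chromosome 13 included 3 neighbouring Serpinb6 genes that were higher in the bulge. Serpinb6a, an inhibitor of cathepsin G and trypsin-like proteases, was 12.33 in the bulge against 10.67 in the hairshaft, a difference of 1.67 or 3.17-fold. Serpinb6c was 6.0 and 4.34, a difference of 1.66. Serpinb6e was 10.18 and 6.03, a difference of 4.16 or 17.9-fold, and ranked 211 of 13329. The probe sets of these 3 genes are of the _a_at, _s_at and _x_at kinds, so with plain probe sets alone they had no value, and signal shared between these similar genes cannot be told apart. Serpinb6b, their relative toward the other end of the locus, read 3.19 on both arrays. Such exactly equal values were found for 1150 of the 13329 genes above the floor (8.63%).

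Serpinb9 inhibits granzyme B, the killing protease of cytotoxic lymphocytes. It was 4.71 in the bulge against 3.44 in the hairshaft, a difference of 1.27, but it dropped below 2-fold with the higher floor (0.50), the averaged probe sets (0.94) and the offset (0.65). Markers of T and NK cells went the opposite way to Serpinb9, and granzyme B itself, Gzmb, was not above the floor. The part of these cells in the Serpinb9 value was not tested. Serpinb1a, an inhibitor of neutrophil elastase and cathepsin G, was 7.64 and 7.51. A second Serpinb1a probe set had the other direction, -1.03. Serpinb9b was near the floor, at 3.11 and 2.76.

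Among the cystatins, which inhibit cysteine proteases, only 3 of 8 measured genes were above the floor. Cst6, or cystatin M/E, inhibits cathepsin L and legumain, and mice without it have a scaling skin disorder. It was 14.31 in the bulge against 13.16 in the hairshaft, a difference of 1.16 or 2.23-fold, close to the upper end of the array's range, where a signal may saturate. Its targets were closer in the probe sets used. Cathepsin L (Ctsl) was 12.63 in the bulge against 12.88 in the hairshaft, a difference of -0.25, and legumain (Lgmn) was 7.96 and 7.83.

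Cst3, or cystatin C, the secreted inhibitor made by most tissues, was 13.42 and 13.28, a difference of 0.14. Cst7, or cystatin F, an inhibitor of immune cells, was dim, at 3.35 in the bulge against 4.66 in the hairshaft. Its difference of -1.30 became -0.44 with the higher floor and -0.65 with the offset, so the 2-fold call of Cst7 rests on low values. T and NK cell markers were higher in the hairshaft with it. Of these 11 measured markers 6 were hairshaft-high and none bulge-high, with summed signals of 8.36 for the bulge against 9.64 for the hairshaft, and Gzma and Gzmb were at background on both arrays. Their part in the Cst7 value was not tested.

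The cathepsins, proteases of the lysosome and of immune granules, were balanced between the arrays. Of 17 measured, 13 were above the floor, with 2 bulge-high, 2 hairshaft-high, 9 under 2-fold apart and a median of -0.13. The abundant cathepsins of most cells were among the 9. Ctsb was 12.02 in the bulge against 11.94 in the hairshaft, and its 4 probe sets above the floor lay between 0.0018 and 0.41. Ctsd, the aspartic protease of lysosomes, was 11.94 and 11.28, a difference of 0.66. Ctsc, which activates granule serine proteases, was 10.59 and 10.71.

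Ctsk had the largest cathepsin difference. It is the collagen-degrading cathepsin of osteoclasts and fibroblasts, and it was 8.98 in the bulge against 10.87 in the hairshaft, a difference of -1.89 or 3.70-fold. Fibroblast markers were higher in the hairshaft for 6 of 8 genes, 4 of them by at least 2-fold and led by the collagen chain Col1a1 (11.87 and 14.36). Dpt, a matrix protein of the same list, was bulge-high. The summed signal of the list was 15.34 for the bulge against 16.56 for the hairshaft, and its part in the Ctsk value was not tested.

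Ctsw, the cathepsin of NK and cytotoxic T cells, was 5.96 in the bulge against 7.40 in the hairshaft, a difference of -1.44 or 2.71-fold. It moved with the T and NK cell markers described beside Cst7, among them the T cell receptor chain Cd3e (5.77 and 7.25). Their part in the Ctsw value was not tested. Ctsg, a serine protease of neutrophils and mast cells, was near the floor, at 4.0 in the bulge against 2.86 in the hairshaft. Its difference of 1.14 was 0.46 with the offset, and Ctsg had no value with the higher floor.

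Mast cell markers went the opposite way to Ctsg, with 4 of 7 hairshaft-high and none bulge-high (8.03 and 9.61 summed). Of 8 neutrophil markers only S100a8 and S100a9, which keratinocytes also make, were above the floor in the bulge. Both were bulge-high as Ctsg was, with S100a8 at 9.40 in the bulge against 6.59 in the hairshaft and S100a9 at 9.46 and 7.10. Summed, the neutrophil list was 10.46 for the bulge against 8.05 for the hairshaft. Cxcr2 was above the floor only in the hairshaft, at 2.77. The granule genes Elane, Mpo, Ltf and Ngp were at background on both arrays. The part of mast cells or neutrophils in the Ctsg value was not tested.

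Ctsz, a lysosomal carboxypeptidase, was 10.52 in the bulge against 9.28 in the hairshaft, a difference of 1.24 or 2.36-fold. Its 3 probe sets had the same direction, from 0.27 to 1.37, and their mean was 0.96. Macrophage markers, beside it, were under 2-fold apart for 12 of 12 genes, with summed signals of 12.20 and 12.23. The part of macrophages in the Ctsz value was not tested. The other cathepsins above the floor, Ctsa, Ctse, Ctsf, Ctsh and Ctso, had differences between -0.52 (Ctsh) and 0.62 (Ctsf). A second Ctsh probe set, at 9.08 in the bulge against 10.08 in the hairshaft, had -0.999, just under 2-fold.

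The probe sets of a gene were the only repeat measurement. Of 12 genes with several probe sets above the floor, 8 had the same direction in all of them, and 6 had probe sets on both sides of the 2-fold limit. None had probe sets at least 2-fold apart in both directions. Ctsl differed most in sign. The probe set used gave -0.25 (12.63 and 12.88), and a second, dimmer one gave 1.85 (4.64 and 2.79).

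**Figure D4:**
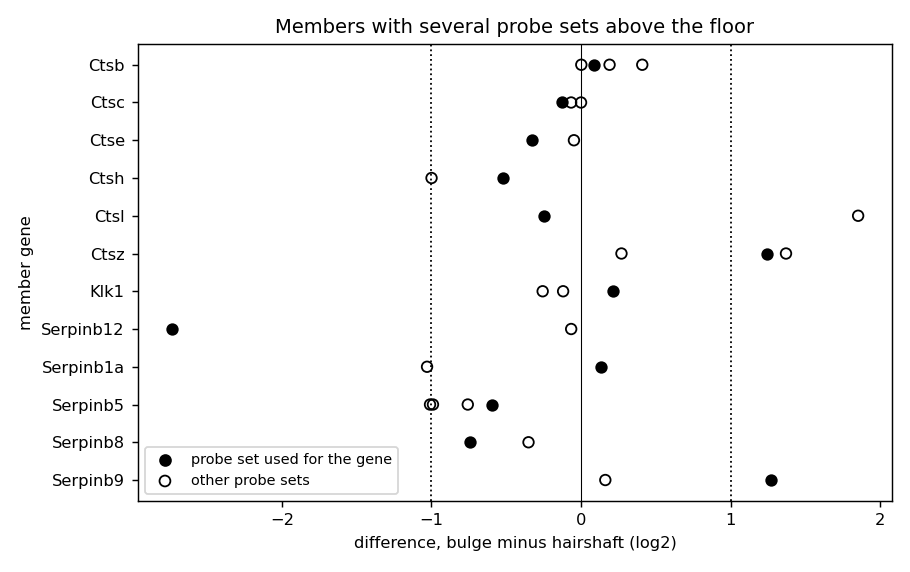
Difference between arrays (x axis, log2, bulge minus hairshaft) of each probe set above the floor for the 12 genes with more than 1 (y axis). Filled circles are the probe sets used for the gene, open circles the others, and dotted lines mark 2-fold. The used Serpinb12 probe set is at -2.74 and its other at -0.07, and those of Ctsl lie at -0.25 and 1.85.

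Genes that act with these proteases were read from 4 lists. Their counts stand beside 11.4% bulge-high and 4.91% hairshaft-high among all genes above the floor. In the membrane-anchored serine protease list, 16 of 21 measured genes were above the floor, 5 hairshaft-high, 2 bulge-high and 9 under 2-fold apart, with a median of -0.05. Type II transmembrane serine proteases, the class to which matriptase belongs, made up 4 of these 5, and Tmprss11e of the same class was bulge-high. The list was written with several genes of this class in it. Tmprss11f was 6.63 in the bulge against 8.81 in the hairshaft (4.53-fold), Tmprss13 was 7.56 and 9.45 (3.71-fold) and Tmprss4 was 9.86 and 11.20 (2.53-fold). Tmprss11g was below the floor in the bulge (2.23) and 3.73 in the hairshaft, at least 2.07-fold higher there with this floor. Both values lie under the higher floor of 4.21, so the 2-fold call of Tmprss11g rests on low values.

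The remaining gene was Scnn1a, the alpha subunit of the sodium channel that prostasin activates, with 6.55 and 7.67. Its partner subunits went the other way, Scnn1g by 1.06 and Scnn1b by 0.86. Scnn1g fell under 2-fold with the higher floor (0.84), the offset (0.63) and quantile normalization (0.91). Tmprss11e was also higher in the bulge, at 4.11 and 2.72, but its difference of 1.39 became 0.56 with the offset. The matriptase inhibitors Spint1 (9.44 and 9.41) and Spint2 (10.96 and 10.38) were under 2-fold apart.

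In the list of cornified layer substrates and enzymes, 2 of 19 genes were hairshaft-high, none bulge-high and 17 under 2-fold apart, with a median of -0.26. The 2 were Blmh, the bleomycin hydrolase that breaks down filaggrin peptides (11.43 in the bulge against 12.90 in the hairshaft), and involucrin (10.71 and 12.11). Blmh fell under 2-fold with plain probe sets (-0.94). The kallikrein substrates Dsg1a and Dsc1 had -0.42 and -0.84, and filaggrin, the substrate of Casp14, had -0.79.

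In the list of other protease inhibitors, 4 of 14 genes above the floor were hairshaft-high and 3 bulge-high, with a median of -0.15. The 4 were Wfdc21 (-1.46), Serpina12 or vaspin, an inhibitor of Klk7 (-1.38), Wfdc5 (-1.12) and the stefin Stfa3 (-1.10). The 3 were Serping1, the C1 inhibitor (1.54), Serpinf1 (1.46) and Tfpi (1.25), the last of which was 0.01 with plain probe sets.

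The lysosome list, beside the cathepsins, had 22 of 23 genes under 2-fold apart, with a median of 0.04. The exception was prosaposin, Psap, 12.22 in the bulge against 11.08 in the hairshaft.

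**Figure D5:**
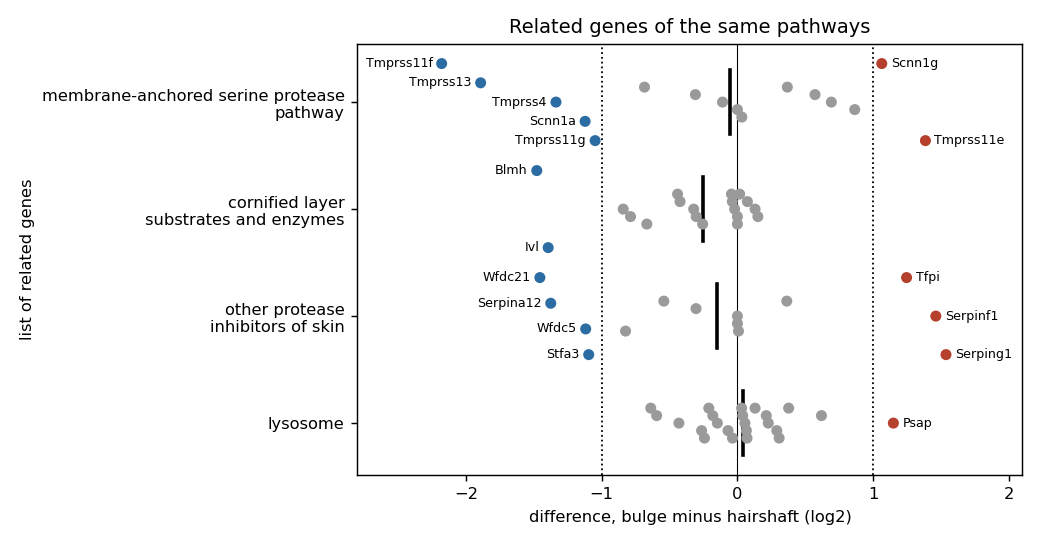
Difference between arrays (x axis, log2, bulge minus hairshaft) of the genes above the floor in 4 lists of related genes (y axis). Each point is 1 gene, those at least 2-fold apart are coloured and named, thick bars are list medians (-0.05, -0.26, -0.15 and 0.04 from top to bottom) and dotted lines mark 2-fold.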

How the data were processed

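The authors deposited log2 summaries of probe sets, made with GCRMA per the submitters' processing notes; neither its version nor its settings are stated in the labels. GCRMA corrects background from probe sequence and normalizes arrays to each other, so low values depend on its background model. That the scale is log2 was inferred from their range (2.23 to 15.36). A platform annotation gave 34958 probe sets 1 gene symbol, 932 several and 9211 none, and symbols were updated by Entrez identifier for 34754 against RefSeq names of GRCm38.p6. No sample column was left unused. Each gene took its probe set with the highest mean. The floor on each array was the 95th percentile of 80 olfactory and vomeronasal receptor probe sets (2.68 on both), and 13329 of 18194 genes exceeded it on at least 1 array. A value at or below the floor was replaced by it, which gives differences as bounds.

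No test was run, since with 1 array per group the residual degrees of freedom are 0; arrays have no sequencing depth, and their number limits precision. Genes were counted at 2-fold and 8-fold. Summed signals are the log2 of summed linear values over a list. Genes named were those at least 2-fold apart, the 3 with the highest mean in each family, a preset list, those nearest the limit and the 2-fold members of 4 pathway lists (at most 4 per direction); the others named, among them cell markers, were chosen after their values were seen. The genes and lists were chosen with earlier results of these data known. The 7 alternatives were the 99th percentile as floor, no floor, the mean of probe sets, plain probe sets only, an offset of 16 added before the log, a loess correction (span 0.3) and quantile normalization. Counting was tested on simulated data with an assumed spread and planted shifts well past 2-fold, in genes well above the floor. This checks the counting step only, not calls near the floor or near 2-fold. The work used matplotlib 3.10.9, statsmodels 0.14.6, numpy 2.4.6 and pandas 2.3.3 in Python 3.11.15.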

Additional observations from a re-analysis of the deposited data

How the results depend on the processing

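Each count and family median kept its size within 1.5-fold under all 7 alternatives, with 6 to 9 bulge-high and 8 or 9 hairshaft-high genes. Of 18 genes at least 2-fold apart, 13 stayed so wherever they had a value, and 5 (Casp14, Cst7, Ctsg, Ctsz and Serpinb9) were under 2-fold with at least 1 alternative. Of 257 values of named proteases and inhibitors under the alternatives, 10 moved by over 1.5-fold, in 6 genes, and none of the 18 calls reversed; the cause was not tested. Small medians changed sign: that of the Kazal-type inhibitors was 0.13 with the higher floor, that of the cathepsins 0.11 with averaged probe sets, and with plain ones those of the clade B serpins, the cystatins and the Klk1 subfamily were -0.20, -0.07 and -0.01. Scaling by loess or quantiles turned the direction of 0 of the 50 genes. Ctsl, at -0.25, was 0.80 with averaged and 1.85 with plain probe sets. Signal near the floor limits Ctsg, Cst7, Serpinb9 and the hairshaft value of Serpinb11. No replicate could be left out. No paired analysis was possible because each structure has 1 array.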
